A study of Homo sapiens with 18 samples.

Results

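Chromatin accessibility was compared between 72 h and 48 h in the GFP high cells of a human B-cell lymphoma line. The comparison took every peak of the deposited count table and only the samples labelled GFP high at those times, which are 6 of the 18 samples of the series, with 3 labelled replicates at 72 h and 3 at 48 h. Raji is an established Epstein-Barr virus positive Burkitt lymphoma line that grows as germinal-centre-like B cells. The series title and design text concern SMARCA4 and its degradation through an auxin-inducible degron. All 18 samples carry the label Smarca4+/+, and they cross GFP high and GFP low with 24, 48 and 72 h. What GFP marks, which agent was added and when the hours began is not in the labels, so the comparison is given only as the labels give it. The table names its columns by day, and the columns D2 and D3 were read as 48 h and 72 h. All samples are 1 cell line, so the results describe that line.

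ATAC-seq uses a transposase that inserts sequencing adapters into DNA not covered by nucleosomes or other bound proteins, so that the number of fragments at a site measures how accessible it is. SMARCA4, also called BRG1, is an ATPase of the BAF complexes, which slide and evict nucleosomes and keep many enhancers of B cells open. Promoters of housekeeping genes are commonly GC-rich and stay accessible in most cells, whereas enhancers within and between genes differ more among cell states. Promoters of many growth and cell-cycle genes hold a CCAAT box, the element bound by the trimeric factor NF-Y, whose histone-fold subunits bind DNA at nucleosome edges.

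Some of the promoters named in the results are shown here, each as the 250 bases before the start site in the direction of transcription (RefSeq, GRCh38.p14). Capitals mark the letters CCAAT or their reverse complement ATTGG. The first 6 lie at peaks with fewer reads in the 72 h than in the 48 h library, and ID1 lies at a peak with more. CHAF1A lies on chromosome 19 (chr19:4402390-4402639, plus strand), PGP on chromosome 16 (chr16:2214841-2215090, minus strand), GPR108 on chromosome 19 (chr19:6737581-6737830, minus strand) and EIF4A1 on chromosome 17 (chr17:7572575-7572824, plus strand). SMARCA4 (chr19:10960780-10961029, plus strand) and JUND (chr19:18281623-18281872, minus strand) lie on chromosome 19 too, and ID1 lies on chromosome 20 (chr20:31605039-31605288, plus strand).
CHAF1A: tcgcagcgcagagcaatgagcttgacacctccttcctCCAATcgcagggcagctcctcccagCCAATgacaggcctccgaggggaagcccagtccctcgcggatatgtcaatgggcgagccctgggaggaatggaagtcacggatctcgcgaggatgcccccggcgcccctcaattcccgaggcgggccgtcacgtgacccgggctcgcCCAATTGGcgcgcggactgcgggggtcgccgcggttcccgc
PGP: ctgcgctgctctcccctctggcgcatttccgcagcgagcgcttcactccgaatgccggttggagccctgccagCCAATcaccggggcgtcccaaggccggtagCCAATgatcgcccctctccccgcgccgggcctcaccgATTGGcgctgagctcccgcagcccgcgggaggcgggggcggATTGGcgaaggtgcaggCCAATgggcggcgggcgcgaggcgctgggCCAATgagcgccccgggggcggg
GPR108: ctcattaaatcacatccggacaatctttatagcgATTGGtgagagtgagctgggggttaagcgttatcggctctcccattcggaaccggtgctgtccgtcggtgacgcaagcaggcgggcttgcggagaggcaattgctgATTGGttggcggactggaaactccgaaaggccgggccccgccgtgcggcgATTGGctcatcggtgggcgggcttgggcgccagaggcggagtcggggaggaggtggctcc
EIF4A1: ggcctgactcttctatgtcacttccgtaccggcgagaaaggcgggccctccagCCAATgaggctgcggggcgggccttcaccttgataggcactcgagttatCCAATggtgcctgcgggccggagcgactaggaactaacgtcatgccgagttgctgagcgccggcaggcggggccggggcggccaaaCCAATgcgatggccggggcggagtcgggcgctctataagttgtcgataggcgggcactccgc
SMARCA4: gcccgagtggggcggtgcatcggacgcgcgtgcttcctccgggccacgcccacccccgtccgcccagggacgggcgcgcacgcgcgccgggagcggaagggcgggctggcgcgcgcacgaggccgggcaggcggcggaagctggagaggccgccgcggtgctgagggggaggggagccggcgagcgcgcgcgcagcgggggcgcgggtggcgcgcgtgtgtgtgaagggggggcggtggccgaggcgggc
JUND: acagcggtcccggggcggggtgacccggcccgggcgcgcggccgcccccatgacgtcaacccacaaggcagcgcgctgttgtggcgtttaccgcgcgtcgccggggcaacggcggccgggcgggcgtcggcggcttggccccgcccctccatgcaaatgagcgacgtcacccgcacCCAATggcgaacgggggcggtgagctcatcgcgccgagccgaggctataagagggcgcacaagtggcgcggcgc
ID1: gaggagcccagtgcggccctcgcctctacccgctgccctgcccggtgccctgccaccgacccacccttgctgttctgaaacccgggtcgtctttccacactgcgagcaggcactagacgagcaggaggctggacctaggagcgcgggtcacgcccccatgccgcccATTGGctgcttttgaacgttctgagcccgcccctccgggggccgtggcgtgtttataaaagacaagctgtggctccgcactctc
CHAF1A holds 4 such matches, of which the last pair overlap, PGP holds 6, GPR108 and EIF4A1 hold 3 each, JUND and ID1 hold 1 each, and SMARCA4 holds none. The printed promoters hold more matches than is typical. Of the 68 promoter windows at lower peaks, 17 held at least 3 and 39 at least 1. Those of RPL18 and ZNHIT2, named below and not printed, hold none.

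The table held 71318 peaks of 501 bp. The 3 columns of GFP high cells summed to between 7672843 and 9057767 counts at 72 h and between 8966190 and 10929964 at 48 h. Columns of the same group differed from each other by 1.78 to 1.81 times the variance of pure counting (18 pairs in the series), the same multiple in every group, whereas GFP high columns of different times differed by 2.21 to 2.30 times that variance (9 pairs). Nothing in the labels says that the 3 replicates came from separate cultures. The multiple is an average over all peaks, which does not show a spread between cultures and cannot exclude one. For this reason each group's columns were added up and counted as 1 library per time, of 24677828 counts at 72 h and 29503529 at 48 h, and the change between the times has no replicate check. Levels below are in CPM, counts scaled to the total of the library or column after TMM adjustment. Changes are 72 h minus 48 h in log2 CPM, and intervals are 95% intervals that cover counting error only. A peak is called where an edgeR quasi-likelihood test on the 6 columns gave a Benjamini-Hochberg adjusted p below 0.05 over all peaks tested, and this p compares these libraries and not the 2 times. At the gene ends, peaks were found for 6 of 7 B-cell marker genes, 4 of 7 T-cell, 1 of 6 myeloid and 1 of 6 epithelial and stromal ones. No marker peak was called, and the summed gene-end level of the B-cell markers was 187 CPM at 72 h and 190 CPM at 48 h, that of the T-cell markers 102 and 99.0 CPM, that of the myeloid markers 11.97 and 13.49 CPM and that of the epithelial and stromal markers 9.24 and 9.08 CPM.

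Few peaks differed between the times. In the 72 h library 399 peaks were called higher (0.559% of the 71314 tested) and 290 were called lower (0.407%), together 0.966%. The higher peaks were nearest to 319 genes and the lower ones to 224 genes. The columns (named V0, V1 and V2, in which order column values are given below) of the 2 times did not overlap at 388 of the 399 higher peaks and at 280 of the 290 lower peaks, where over all peaks 8.49% were separated upwards and 8.98% downwards. The calls were made on these same columns, so the separation largely follows from them and is no added evidence. A change of at least 2-fold in the summed libraries was seen at 117 peaks higher at 72 h (0.164%) and 42 lower (0.0589%), and a change of at least 1.5-fold at 1500 higher (2.1%) and 1059 lower (1.48%). The called changes were mostly moderate, with a median fitted change of 0.75 for the higher peaks (0.19 to 2.35) and −0.54 for the lower ones (−1.63 to −0.24). The higher peaks had a median of 10.6 CPM at 72 h and 6.54 CPM at 48 h and the lower peaks one of 12.8 CPM at 72 h and 18.7 CPM at 48 h, beside 7.91 CPM at 72 h and 7.93 CPM at 48 h over all peaks. With all peaks put in 10 equal classes from weakest to strongest, the strongest class held 71 of the higher and 33 of the lower calls, and the weakest class 18 and 8. The direction varied between classes. Class 2 held 44 higher and 6 lower calls, class 7 held 39 and 43, class 8 held 31 and 57, and class 9 held 31 and 78. The DESeq2 Wald test on the same columns called 85 higher and 56 lower, all of them among the peaks above. In bulk cells a change in the share of cells in which a site is open cannot be told apart from a change in how often it is open in each cell.

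**Figure D1:**
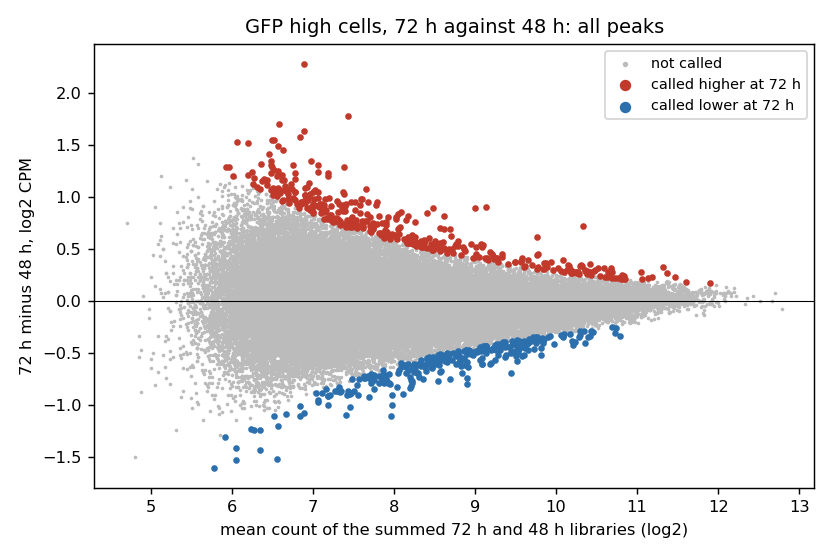
Change of each of the 71318 peaks (y axis, 72 h minus 48 h, log2 CPM) against the mean count of the 2 summed GFP high libraries (x axis, log2 scale), with the 399 peaks called higher at 72 h in red and the 290 called lower in blue. Called peaks lie at the edges of a cloud that narrows as counts grow.

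The direction of the calls differed with the position of the peak. A peak is put at a gene end where it lies at most 1 kb from the first or last base of a protein-coding gene. Of 13713 such peaks, 49 were called higher at 72 h (0.357%, exact binomial interval 0.264 to 0.472) and 85 lower (0.620%, 0.495 to 0.766). Of the 30806 peaks inside gene bodies, 196 were called higher (0.636%) and 98 lower (0.318%), and of the 26799 intergenic peaks 154 were called higher (0.575%) and 107 lower (0.399%). Gene-end peaks were stronger, with a median of 23.2 CPM at 48 h against 7.02 CPM in gene bodies and 6.24 CPM between genes, and stronger peaks also allow smaller changes to be called. Their median count was 618, near the 670.5 of strength class 9, where lower calls also exceeded higher ones. The part of strength in the direction at gene ends was not tested. The median change of all gene-end peaks was −0.03, that of gene bodies −0.01 and that of intergenic peaks −0.005. When the scaling was fitted to the level of the peaks by loess, the share of gene-end peaks called lower was 0.445%. Neighbouring peaks are not independent, so the intervals are narrower than they should be and no test was made over peaks. By chromosome the share of peaks called higher was 2.12% on chromosome 22 and 1.12% on chromosome 20, against 0.173% on chromosome 4, and the share called lower was 1.65% on chromosome 19 and 0.105% on the X chromosome.

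**Figure D2:**
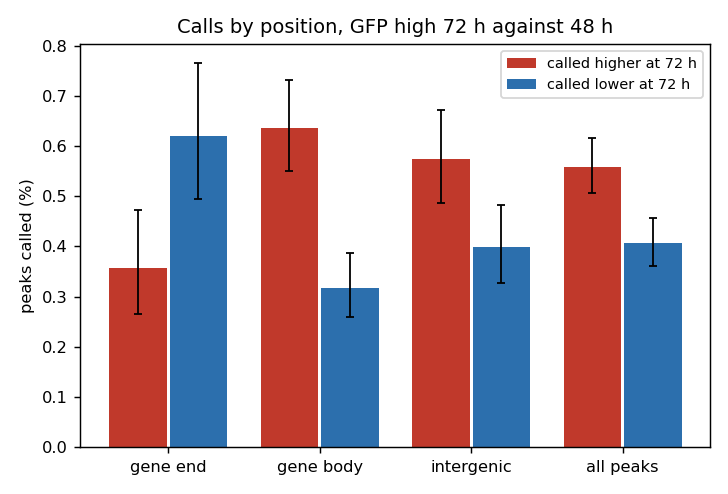
Share of peaks called in GFP high cells at 72 h against 48 h (y axis, percent) by position (x axis), in red for higher and in blue for lower, with exact 95% binomial intervals. At gene ends the lower calls (0.620%) exceed the higher ones (0.357%), and in gene bodies and between genes the higher calls exceed the lower ones.

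The peak with the strongest change lay inside ATAD3A, which encodes a mitochondrial inner-membrane ATPase (chr1:1518106-1518606). Its level was 8.36, 7.84 and 6.86 CPM in the 72 h columns, against 0.88, 0.72 and 2.72 CPM in the 48 h columns. The 2 times did not overlap, and the change was 2.28 (1.66 to 2.89; adjusted p 2.4e-11). ATAD3A has near-identical neighbouring copies, ATAD3B and ATAD3C, and reads that fit several copies may have been placed on any of them, so the site is uncertain. The same holds for the peaks next to FRG2C, a member of a family repeated near chromosome ends (chr3:75668998-75669498), ZNG1F, one of several zinc chaperone copies (chr9:41229547-41230047), and SPDYE17, of the Speedy family (chr7:76997315-76997815), and for a peak on the short arm of chromosome 22 with no gene within 50 kb (chr22:12693439-12693939). FRG2C had 9.65, 10.82 and 10.35 CPM at 72 h, against 3.53, 3.10 and 2.26 CPM at 48 h, a change of 1.78 (1.32 to 2.25). The changes at ZNG1F, the chromosome 22 peak and SPDYE17 were 1.64, 1.70 and 1.58, and the columns of the 2 times were separated at each of them. So 5 of the 8 peaks highest by the nearer bound of the interval are uncertain in this way.

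The other 3 of those 8 peaks lie outside such families. Inside MAFF, which encodes a small Maf protein that pairs with CNC and AP-1 factors (chr22:38214614-38215114), the level was 4.89, 5.72 and 5.23 CPM at 72 h, against 1.88, 2.07 and 1.36 CPM at 48 h. That change was 1.55 (0.94 to 2.16; adjusted p 0.000485), and every 72 h column was above every 48 h column. At a start site inside DKKL1, a secreted protein known from the acrosome of sperm (chr19:49363259-49363759), the columns had 5.53, 3.61 and 6.21 CPM at 72 h, against 2.21, 2.07 and 1.00 CPM at 48 h, a change of 1.54 (0.93 to 2.16). A peak on chromosome 7 with no gene within 50 kb (chr7:20559296-20559796) changed by 1.49 (0.89 to 2.09). Of the 8 peaks FRG2C had the highest level in the summed 72 h library, 10.3 CPM.

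The 8 peaks that were lowest at 72 h by the same rule lay inside or between genes, and none at a gene end. The peak inside UMAD1, a gene of little known function (chr7:7772431-7772931), had 6.18, 5.85 and 4.90 CPM at 72 h, against 13.58, 11.06 and 11.68 CPM at 48 h, a change of −1.10 (−1.48 to −0.73; adjusted p 1.8e-05). The peak inside ANK2, which encodes an ankyrin that anchors membrane proteins to the spectrin skeleton (chr4:113350465-113350965), had 3.86, 3.11 and 4.36 CPM at 72 h, against 8.39, 7.96 and 8.15 CPM at 48 h, a change of −1.10 (−1.55 to −0.64; adjusted p 0.00111). At both sites every 72 h column lay below every 48 h column, as the rule required. Peaks inside ZYG11A, a substrate receptor of a ubiquitin ligase, C12orf42, of unknown function, and NOX4, an NADPH oxidase, changed by −1.53, −1.60 and −1.41. Those with no gene within 50 kb changed by −1.51 on chromosome 2 (chr2:176491079-176491579), by −1.43 on chromosome 4 (chr4:156312155-156312655) and by −0.999 on chromosome 5 (chr5:89435222-89435722). At the chromosome 5 peak the level was 7.08, 3.98 and 6.75 CPM at 72 h, against 12.37, 11.78 and 11.68 CPM at 48 h.

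A stretch of 226 kb on chromosome 20, picked out after its values were seen, held 12 of the 399 peaks called higher at 72 h. Runs of at least 3 peaks called in the same direction, each at most 100 kb from the next, were found at 5 places, and this was the one with the most calls. Between chr20:31473313 and chr20:31699553, from DEFB124 over HM13, ID1 and COX4I2 to BCL2L1, these 12 were among 34 peaks, of which 0 were called lower and 28 were above 0, beside 0.559% called higher over all peaks. The other 4 runs held 4 calls among 13 peaks at ADAP1, CHLSN and GPR146 on chromosome 7, 3 among 15 at MICALL2, INTS1 and PSMG3 on the same chromosome, 3 among 9 around ATAD3A on chromosome 1 and 3 among 17 at RETREG1 on chromosome 5, all higher at 72 h. DESeq2 called 6 of these 12. BCL2L1 encodes BCL-XL, a mitochondrial guard against apoptosis. ID1 encodes an inhibitor of E-protein transcription factors, HM13 encodes signal peptide peptidase, COX4I2 a cytochrome oxidase subunit known from lung, and DEFB124 a beta-defensin. COX4I2 had called peaks at 4 of its 6 peaks and BCL2L1 at 3 of 16. RETREG1, which encodes a receptor for autophagy of the endoplasmic reticulum, had 3 of 21, and no other gene reached 3 called peaks in 1 direction.

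Inside BCL2L1 the strongest of the called peaks (chr20:31674802-31675302) had 36.16, 38.20 and 38.88 CPM at 72 h, against 26.61, 24.90 and 30.25 CPM at 48 h, a change of 0.46 (0.27 to 0.64; adjusted p 0.00066). The other 2 in that gene changed by 0.47 (chr20:31693143-31693643) and 0.52 (chr20:31699053-31699553). The peak upstream of ID1 (chr20:31593236-31593736), 11.8 kb from the gene, had 10.04, 8.58 and 10.46 CPM at 72 h, against 4.86, 5.99 and 3.89 CPM at 48 h, a change of 0.98 (0.58 to 1.38). The ID1 promoter peak, over the sequence printed above, had 11.07, 10.20 and 6.43 CPM at 72 h, against 4.64, 5.89 and 5.89 CPM at 48 h, a change of 0.71 (0.32 to 1.09; adjusted p 0.0307, and 0.171 by DESeq2). At all 5 sites the columns of the 2 times were separated. Between COX4I2 and BCL2L1 the peak at chr20:31646842-31647342 changed by 0.84 (0.50 to 1.17).

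Within the stretch the calls were more frequent among the weaker peaks, 10 of 17, than among the stronger ones, 2 of 17. Over the 17 peaks weaker at 24 h the summed level was 261 CPM at 24 h, 190 CPM at 48 h and 259 CPM at 72 h, with a median change of 0.52 and a range of −0.04 to 0.98. Over the 17 stronger peaks the summed level was 915, 870 and 916 CPM at 24, 48 and 72 h, and the median change was 0.09. The 6 gene-end peaks had a median change of 0.05 and included 1 call, at ID1. In the 500 kb on either side, none of the 5 peaks upstream (median 0.16) and none of the 27 peaks downstream (median 0.05) was called by either tool. In GFP low cells, whose libraries are separate, the median change of the 34 peaks was 0.07, 27 were above 0 and 2 were called higher. A peak inside BCL2L1 (chr20:31666539-31667039) was called lower in GFP low cells, at −0.21 (edgeR adjusted p 0.0469). Over all peaks 50.6% were above 0 in GFP low cells, 1.6% were called higher and 2.16% lower. The 12 called peaks summed to 218 CPM at 72 h and 146 CPM at 48 h in GFP high cells, and to 172 CPM at 72 h and 143 CPM at 48 h in GFP low cells.

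**Figure D3:**
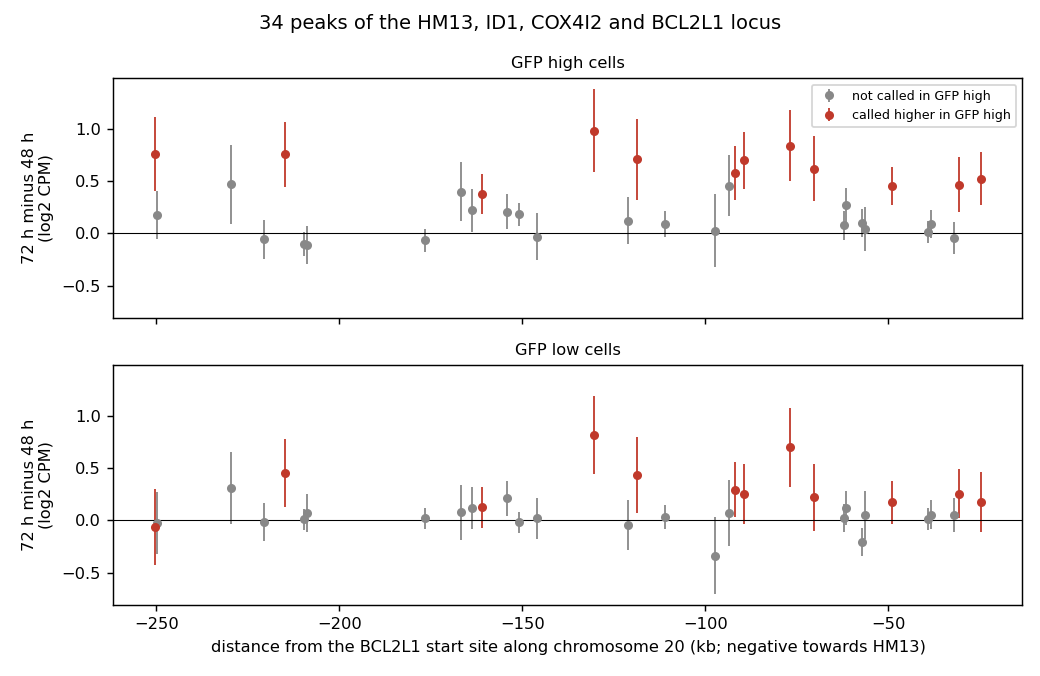
Change of the 34 peaks of the chromosome 20 stretch (y axis, 72 h minus 48 h, log2 CPM, bars are 95% counting intervals) against distance from the BCL2L1 start site (x axis, kb), in GFP high cells above and GFP low cells below. The 12 red points, called higher in GFP high cells, lie between 0.38 and 0.98 there and between −0.07 and 0.81 in GFP low cells.

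At promoters more peaks were called lower than higher. Of the 8215 peaks that overlap a promoter window (250 bases before to 50 after a RefSeq start site), 68 were called lower at 72 h (0.828%) and 28 higher (0.341%), beside 0.407% lower and 0.559% higher over all peaks. These peaks are mostly gene-end peaks, whose strength is given above. The genes named in this and the next paragraph, other than SMARCA4, RPL18, JUND and E2F1, were chosen after their values were seen. The peak before CHAF1A, a subunit of the histone chaperone CAF-1 that loads histones onto new DNA (chr19:4402158-4402658), had 9.39, 13.69 and 15.03 CPM at 72 h, against 20.32, 22.01 and 21.64 CPM at 48 h, a change of −0.74 (−0.998 to −0.479; adjusted p 0.000113). A weaker peak inside CHAF1A (chr19:4430635-4431135) was higher at 72 h, by 1.17 (0.60 to 1.73), and was not called by DESeq2 (adjusted p 0.0601). The peak at PGP, phosphoglycolate phosphatase (chr16:2214633-2215133), had 13.64, 17.67 and 18.30 CPM at 72 h, against 26.95, 25.21 and 23.73 CPM at 48 h, a change of −0.60 (−0.83 to −0.37; adjusted p 0.0007). The promoter peaks of CHAF1A and PGP were lower in every 72 h column than in any 48 h column, as were the next ones. The peak of GPR108, a Golgi membrane protein (chr19:6737358-6737858), changed by −0.53 (−0.73 to −0.32), and that of EIF4A1, the RNA helicase of cap-dependent translation (chr17:7572274-7572774), by −0.49 (−0.70 to −0.28). At RPL18, a protein of the large ribosomal subunit (chr19:48619084-48619584), the level was 22.00, 16.55 and 19.82 CPM at 72 h, against 23.41, 26.97 and 32.97 CPM at 48 h, a change of −0.54 (−0.75 to −0.32; adjusted p 0.00249, and 0.0681 by DESeq2).

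The gene-end peak of SMARCA4 (chr19:10960534-10961034), which covers the promoter sequence printed above, was among them. It had 11.84, 14.81 and 13.29 CPM at 72 h, against 19.11, 18.70 and 20.65 CPM at 48 h. Every 72 h column was below every 48 h column, and the change was −0.56 (−0.82 to −0.30; adjusted p 0.0119). The call was lost by DESeq2 (adjusted p 0.0637) and on leaving out the 72 h column V0 (0.0968), the 72 h column V2 (0.0518) or the 48 h column V2 (0.0873). At 24 h the summed level was 13.1 CPM, near that of 72 h. In GFP low cells it was 21.0, 16.7 and 16.8 CPM at 24, 48 and 72 h, a change of 0.01 (−0.24 to 0.25) between the last 2 times, and the difference between the GFP levels was not called (interaction −0.54, adjusted p 0.21). SMARCA2 encodes the other ATPase of BAF complexes. Its peak before the start site (chr9:2014916-2015416) had 75.40, 86.22 and 83.10 CPM at 72 h, against 76.86, 85.35 and 75.44 CPM at 48 h, with overlapping columns and a change of 0.04 (−0.08 to 0.15). Its second gene-end peak (chr9:2015853-2016353) changed by −0.24 (−0.44 to −0.03) and was not called (adjusted p 0.311). Accessibility of a promoter is not the amount of the protein, which was not measured here.

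CCAAT boxes were more frequent at the promoters that were lower at 72 h. Of the 68 promoter windows at lower peaks, 17 held at least 3 matches of CCAAT or ATTGG, compared with 0 of the 28 at higher peaks, 5.63% of the 8077 windows at any peak and 3.26% of all 34943 windows. At least 1 match was held by 39 of the 68 (57.4%), by 12 of the 28 (42.9%), by 38.2% of the windows at any peak and by 34.6% of all windows. Grouping all 8215 promoter peaks by their number of matches used no call. The median change was −0.02 for the 5096 peaks with none, −0.03 for the 1892 with 1, −0.03 for the 770 with 2 and −0.07 for the 457 with at least 3. With the scaling fitted to the level these medians were −0.0007, −0.01, −0.02 and −0.06. The share called lower was 0.569%, 0.687%, 1.17% and 3.72% over the same 4 classes. In GFP low cells the medians were 0.07, 0.06, 0.05 and 0.05. Peaks with more matches were also stronger, at a median of 28.2, 32.4, 37.998 and 38.7 CPM at 48 h, and stronger peaks allow smaller changes to be called.

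Another 11 motifs were searched on both strands. The ETS letters CGGAAG were held by 38.2% of the windows at lower peaks, 17.9% of those at higher peaks and 35.6% of those at any peak, a wider gap between lower and higher peaks than that of at least 1 CCAAT match, with the lower peaks near the share at any peak. The GC box GGGCGG was held by 77.9% of the windows at lower peaks, 64.3% of those at higher peaks and 72.0% of those at any peak. The NRF1 motif was held by 17 of 68, by 4 of 28 and by 17.2%. The E-box CACGTG, the YY1 letters AAGATGGC, the cAMP response element TGACGTCA, the AP-1 letters TGANTCA, the octamer ATGCAAAT, the TATA box TATAAA, the E2F letters TTTCCCGC and the SREBP letters TCACNCCAC were each held by at most 10.7% of the windows at higher and 10.3% of those at lower peaks. Over all promoter peaks, whether called or not, the median change was −0.05 for the 129 peaks with an octamer and −0.02 for those without, and −0.03 for the peaks with at least 1 CCAAT match and −0.02 for those without. Overlapping matches were counted each, so the pair that overlaps in CHAF1A counts as 2. Median GC content was 66.5% for the windows at lower peaks, 61.7% at higher peaks and 65.7% at any peak. Across the 8215 promoter peaks, GC content went with the change with a Spearman rho of 0.05 in GFP high cells and 0.24 in GFP low cells, where neighbouring sites and shared libraries make the points dependent. A match is only a match of letters, and no binding was measured.

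Genes of B-cell identity, like all peaks, had few called peaks, and their median change was near 0. The peaks of each list below are all peaks whose nearest gene, within 50 kb, is on the list, and their median changes stand beside the −0.01 of all peaks and their calls beside 0.559% higher and 0.407% lower over all peaks. With 1 to 4 calls a list, such shares rest on single peaks. Most of these single calls sit near the threshold, and DESeq2 made fewer of them. Of 304 peaks of the identity regulators 3 were called higher (0.987%) and 1 lower (0.329%), with a median of 0.01. At the 3′ end of SPI1, which encodes the ETS factor PU.1 (chr11:47355125-47355625), the level was 5.40, 4.85 and 4.47 CPM at 72 h, against 1.55, 0.93 and 3.08 CPM at 48 h, a change of 1.31 (0.71 to 1.91; adjusted p 0.00484, and 0.052 by DESeq2). ETS1, another ETS factor of lymphocytes, had called peaks in both directions inside the gene, with fitted changes of 0.24, 0.20 and −0.39. Of the 107 peaks of light zone genes and CD40 targets 2 were called higher (1.87%), both inside CD83, a marker of activated centrocytes. At the stronger one (chr6:14121772-14122272) the level was 21.62, 23.02 and 22.98 CPM at 72 h, against 18.22, 14.36 and 17.66 CPM at 48 h, a change of 0.42 (0.19 to 0.65). The list's median was −0.03.

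Of the 125 peaks of memory B-cell genes 3 were called lower (2.4%, beside 0.407% over all peaks) and 0 higher, with a median of −0.04, and DESeq2 called neither of the ZEB2 peaks among them. They were a peak inside and a peak near ZEB2, a zinc-finger repressor, with fitted changes of −0.72 and −0.66, and one near ITGB1, the integrin beta 1 chain (chr10:32995628-32996128), with 11.84, 12.57 and 13.83 CPM at 72 h, against 20.87, 20.46 and 17.93 CPM at 48 h. ZEB2 passed narrowly, at adjusted p 0.0422 and 0.0464. Among B-cell receptor signalling genes 1 of 204 peaks (0.490%, near the 0.407% of all peaks) was called lower, near DAPP1, an adaptor that binds phosphoinositides (−0.55, −0.85 to −0.26). Among AP-1, BATF and MAF genes 1 of 67 was higher, at MAFF, and 1 lower, at the JUND promoter. Of the 163 peaks of BAF subunit genes 1 was lower (0.613%), that of SMARCA4.

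Among genes of apoptosis, metabolism and stress few peaks were called, as over all peaks. The p53 response and apoptosis list had 4 of 124 peaks higher (3.23%, beside 0.559% over all peaks) and 0 lower, 3 of them inside BCL2L1 in the stretch described above and 1 near PMAIP1, which encodes the BH3-only protein NOXA (0.37, 0.19 to 0.54). The lists that follow had 1 or 2 calls in a direction. Of 93 hypoxia and glycolysis peaks 1 was higher (1.08%), near ENO1, the glycolytic enolase, at 14.41, 13.19 and 12.09 CPM at 72 h, against 5.52, 7.85 and 7.97 CPM at 48 h. Of 52 peaks of cholesterol and fatty acid synthesis genes 1 was higher, near DHCR7, the last enzyme of cholesterol synthesis (0.94, 0.46 to 1.41), and 2 were lower, at INSIG1, which holds the SREBP transcription factors in the endoplasmic reticulum. The INSIG1 peaks changed by −0.38 (−0.58 to −0.19) before the gene and by −0.34 (−0.47 to −0.21) inside it. Of 101 peaks of amino acid and ER stress genes 1 was higher, at the SLC7A11 gene end (0.22, 0.11 to 0.34), which encodes the cystine transporter. One call each was lower among 97 cell cycle and DNA replication peaks (E2F1, −0.41), 68 heat shock and oxidative stress peaks (NFE2L2, −0.28) and 53 ribosomal protein peaks (RPL18). Housekeeping genes, 60 peaks, had 1 higher near YWHAZ (0.25) and 1 lower at the ACTB gene end (−0.30).

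No peak was called by edgeR or DESeq2 in the other 13 lists. At an unadjusted p under 0.05, which 13.3% of all peaks reached in the edgeR test, they had 4 of 33 B-cell surface marker peaks, 19 of 116 dark zone, 9 of 73 plasma cell, 19 of 99 migration receptor, 10 of 73 NF-kB, 3 of 53 interferon, 12 of 72 cytokine and JAK-STAT, 3 of 24 MHC class II, 3 of 22 aryl hydrocarbon receptor, 15 of 102 quiescence and FOXO, 7 of 58 T-cell, 2 of 22 myeloid and 5 of 35 epithelial and stromal peaks. The medians of these 13 lists ran between −0.08, for MHC class II and for plasma cell genes, and 0.07, for epithelial and stromal markers.

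The same peaks were then read in GFP low cells, whose libraries take no part in the GFP high contrast. Of the 399 peaks higher at 72 h in GFP high cells, 340 were above 0 in GFP low cells too (85.2%, compared with 50.6% of all peaks), 68 were called higher there and 0 lower, and the median change was 0.25. For comparison, 1.6% of all peaks were called higher and 2.16% lower in GFP low cells. Of the 290 lower peaks, 226 were below 0 in GFP low cells (77.9%), 79 were called lower and 1 higher, and the median was −0.25. These peaks were chosen by their GFP high values, so a smaller change in GFP low cells than in GFP high cells says nothing by itself. Over all peaks the change in GFP high cells went with that in GFP low cells with a Pearson r of 0.28 and a Spearman rho of 0.26 over 71318 peaks, which are not independent of each other.

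The lower peaks split by position. Between genes 101 of the 107 lower peaks (94.4%) were below 0 in GFP low cells too, beside 57.1% of all intergenic peaks. Their median was −0.51 and 47 were called lower, beside 787 of all 26799. Inside genes 89 of 98 (90.8%) were below 0, beside 49.6% of all gene-body peaks. Their median was −0.32 and 26 were called lower, beside 656 of all 30806. At gene ends 49 of the 85 lower peaks were above 0 in GFP low cells (57.6%, beside 66.3% of all gene-end peaks), with a median of 0.02, and 6 were called lower and 1 higher. Of all 13713 gene-end peaks 95 were called lower and 402 higher in GFP low cells. The median GFP low change of all peaks also differed by position, at −0.05 between genes, 0.003 inside genes and 0.06 at gene ends. The test of the difference between the GFP levels called 74 peaks in all (0.104%). It called 11 of the 85 lower gene-end peaks (12.9%, beside 0.197% of all gene-end peaks), 0 of the 98 inside genes and 1 of the 107 between genes. These shares describe peaks that were chosen by the GFP high side of that test, so they are no independent evidence. Of the 85 gene-end peaks 30 lay on chromosome 19 (35.3%, beside 6.16% of all gene-end peaks).

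**Figure D4:**
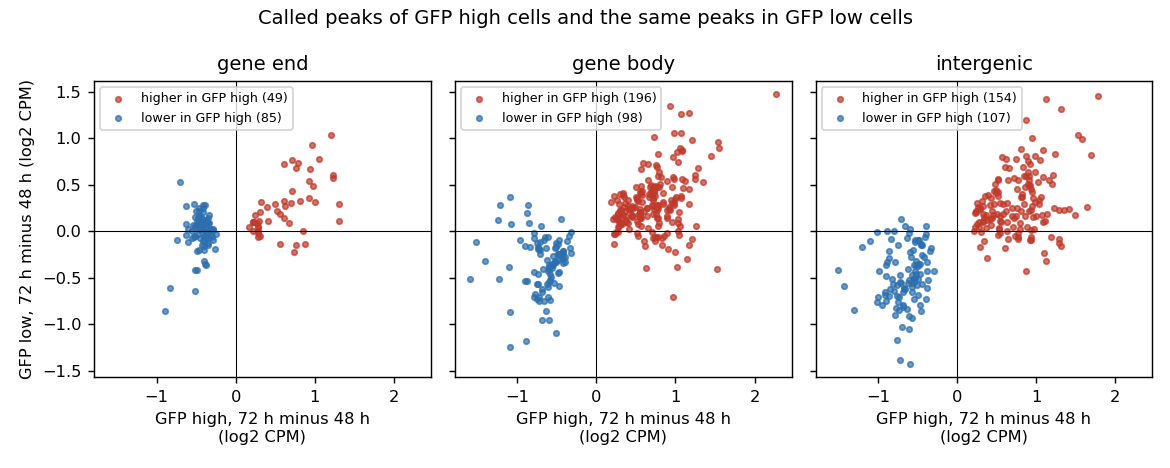
Change in GFP low cells (y axis, 72 h minus 48 h, log2 CPM) against the change in GFP high cells (x axis) for the peaks called in GFP high cells, by position, in red for higher and in blue for lower. Blue points at gene ends lie around 0 on the y axis (median 0.02), and those inside and between genes lie mostly below it (medians −0.32 and −0.51).

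JUND encodes an AP-1 subunit often active in resting cells (chr19:18281382-18281882). It is not typical of the lower gene-end peaks, as it was the only 1 of the 85 called higher in GFP low cells. In GFP high cells its promoter peak had 21.87, 26.38 and 24.62 CPM at 72 h, against 33.46, 30.07 and 33.06 CPM at 48 h, a change of −0.41 (−0.61 to −0.21; adjusted p 0.016, and 0.0898 by DESeq2). In GFP low cells the summed level was 34.5 CPM at 72 h and 28.3 CPM at 48 h, a change of 0.29 (0.11 to 0.46; adjusted p 0.0499). The difference between the GFP levels was −0.68 (adjusted p 0.0123), and was not called without the GFP high 72 h column V0 (adjusted p 0.0525). The peak inside ANK2 was lower at 72 h in both, with −1.10 in GFP high cells and −1.24 (−1.81 to −0.67) in GFP low cells. ATAD3A was higher at 72 h in both, by 2.28 in GFP high cells and 1.47 (0.81 to 2.14) in GFP low cells.

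The 24 h library puts these changes in order of time, side by side only, since the contrasts share the 48 h library. The 399 higher peaks had median levels of 8.08, 6.54 and 10.6 CPM at 24, 48 and 72 h in GFP high cells, and of 6.36, 6.12 and 7.91 CPM in GFP low cells. For 30 of them the level at 24 h was at or above that at 72 h, for 75 it was at or below that at 48 h, and for 294 it lay between. Over all 71318 peaks these counts were 35752, 35181 and 19507. The 399 were chosen for a wide gap between 48 h and 72 h, which leaves more room for a level between them. The 290 lower peaks had 17.6, 18.7 and 12.8 CPM in GFP high cells and 14.2, 14.4 and 11.16 CPM in GFP low cells. The lower gene-end peaks alone had 23.8, 29.998 and 22.3 CPM in GFP high cells, so that 24 h and 72 h lay close together below 48 h, and 33.8, 27.4 and 27.7 CPM in GFP low cells. The lower intergenic peaks had 15.3, 14.98 and 9.92 CPM in GFP high cells, with 24 h and 48 h close together, and 9.80, 11.0 and 7.17 CPM in GFP low cells. Such an order cannot tell a change between the times from a single library that stood apart at 48 h or 72 h, and the part of such a library was not tested.

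**Figure D5:**
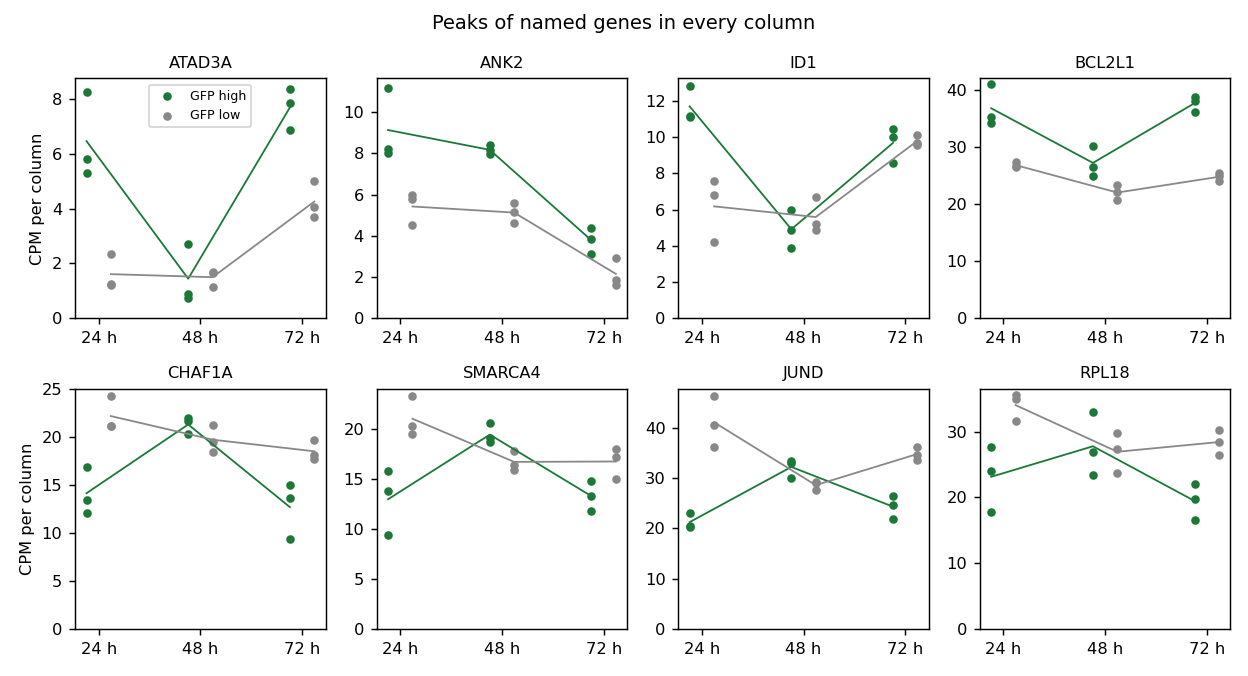
Level of 8 peaks in every column (y axis, CPM) at 24, 48 and 72 h (x axis), in green for GFP high and in grey for GFP low cells, with lines through the group means. In GFP high cells ATAD3A, ID1 and BCL2L1 are lowest at 48 h, CHAF1A, SMARCA4, JUND and RPL18 are highest at 48 h, and ANK2 is lowest at 72 h.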

How the data were processed

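Omni-ATAC libraries of Raji cells were sequenced, and the authors deposited 1 table of raw counts for 71318 shared peaks on hg38, whose counts are whole numbers with no normalization. FastQC, BWA, deepTools and R 4.2.1 are named, per the submitters' processing notes; the peak caller, the duplicate filter and what was counted were not given in the sources used here. How reads from repeated sequence were placed is likewise not given. Columns were matched to groups by name, not to replicate numbers. Totals per column ran from 7672843 to 10929964 at 48 and 72 h.

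Peaks were given the nearest RefSeq protein-coding gene (GRCh38.p14) within 50 kb, and a gene end reaches 1 kb to either side. Levels of columns and of summed libraries used TMM scaling. Changes of summed libraries used TMM scaling and a prior count of 2, and counting variance was multiplied by 1.81, the factor measured between columns of a group. The fit on columns (R 4.3.3, edgeR 4.0.16, robust quasi-likelihood, low-count filter, which removed 4 peaks) used 6 columns, and the test of the difference between GFP levels used 12; the scripts were tested on simulated data. Alternatives were DESeq2 1.42.0, other scalings, filters, position limits and left-out columns.

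Named peaks were the 8 highest and 8 lowest by the nearer interval bound. They were taken from called peaks with separated columns and a mean count of at least 30. Further ones were up to 3 genes of each of 27 lists, genes with at least 3 calls in 1 direction, SMARCA4 and SMARCA2. The peaks with the 4 smallest p of the difference between GFP levels were named too. Members, lists and tests were chosen with earlier results of these data known.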

Additional observations from a re-analysis of the deposited data

Results flagged for a closer look

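Among the 110 named peaks, 7 were called by the edgeR test of the difference itself between GFP high and GFP low cells. The test compares their changes at 72 h against 48 h (log2, GFP high minus GFP low). Over all 71318 peaks it called 74 (0.104%). Some of the 110 were named because they had the smallest p of this test, so their calls followed from that choice. The 7 therefore cannot be set against the share over all peaks. At the gene end of ZNHIT2, which encodes a zinc-finger HIT protein, the change was −0.46 in GFP high and 0.25 in GFP low cells, and the fitted difference was −0.697 (adjusted p 0.00744). This call held on leaving out each of the 12 columns in turn (adjusted p 0.00669 to 0.0406). At the JUND promoter the difference was −0.6778 (adjusted p 0.0123), and it was lost without the GFP high 72 h column V0 (0.0525). At the E2F1 promoter, a transcription factor of the G1 to S transition, it was −0.6317 (adjusted p 0.0286), with changes of −0.41 in GFP high and 0.25 in GFP low cells. At a peak near BICRA, a subunit of non-canonical BAF complexes, the difference was −0.6801 (adjusted p 0.0312). Near BATF3, an AP-1 family factor, it was −1.1441 (adjusted p 0.0311), with changes of −0.52 in GFP high and 0.64 in GFP low cells. A peak with no gene within 50 kb (chr11:115925002-115925502) had a difference of 0.6582 (adjusted p 0.00744), where GFP low cells had 19.2 CPM at 72 h and 33.0 CPM at 48 h and the change in GFP high cells was −0.14. That call too was lost without the GFP high 72 h column V0 (0.0525). Another one (chr1:104931981-104932481) had a difference of 0.5035 (adjusted p 0.0265), with changes of 0.03 in GFP high and −0.46 in GFP low cells, and was lost without the GFP low 48 h column V0 (0.058). On leaving out each of the 12 columns in turn the E2F1 and BICRA calls were lost 8 times each, with adjusted p up to 0.122 and 0.177, and the BATF3 call 9 times, with adjusted p up to 0.0909. With loess scaling E2F1 (0.0506) and BICRA (0.056) were not called, nor was BICRA by DESeq2 (0.0562), which gave BATF3 no adjusted p.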

How the results depend on the processing

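No call of the 689 changed sign under another scaling, filter, tool or left-out column. At 1.5-fold in place of 2-fold, 1500 peaks were higher and 1059 lower at 72 h. The DESeq2 Wald test called 85 higher and 56 lower, and 26 for the difference between GFP levels. Leaving out 1 column at a time gave 147 to 222 higher and 53 to 109 lower peaks at 2-fold, 157 to 238 higher and 107 to 176 lower calls in the fit, and 10 to 38 for the difference between GFP levels; these fits have fewer columns, and the fit called fewest without the 48 h column V0 (157 and 107). With loess scaling the fit called 362 higher and 250 lower, of which 328 and 231 were shared with the 399 and 290, and the share of gene-end peaks called lower was 0.445%, where it had been 0.620%; the cause was not tested. Fitting all 18 columns gave 296 higher and 273 lower. Of the 110 named peaks 45 were called, and 20 of these were called in every setting run. DESeq2 did not call 20 of the 45, with adjusted p between 0.052 and 0.187 (a peak each of COX4I2, SMARCA4, JUND, SPI1, CD83, ZEB2, DAPP1, E2F1, PMAIP1, SLC7A11, DHCR7, NFE2L2, RPL18, YWHAZ and NOX4, 2 each of BCL2L1 and RETREG1, and the chromosome 4 peak with no gene). Calls at ACTB, C12orf42, ETS1, ZYG11A and the stronger COX4I2 peak were lost only on leaving out a column or, for ETS1, also with loess. Of the peaks named after their values were seen, CHAF1A and PGP promoters and the distal ID1 peak were called in all 14 settings run, EIF4A1 was lost without the 72 h column V2 (0.0534) and GPR108 without the 48 h column V0 (0.0632); DESeq2 did not call those of CD83, ETS1, ZEB2, DEFB124, the ID1 promoter, the INSIG1 gene end and 1 each of HM13 and CHAF1A. Columns of the same V number deviated together between 72 h and 48 h very little (correlations 0.0102, 0.00585 and 0.00795), though each of these was the highest of its column. Columns of unlike V numbers had correlations of −0.0069 to −0.000626. Each group was centred on its own mean, so these negative values follow from the positive ones and add no evidence. A weak pairing by V number may be present. A fit with the V number as a replicate block called 452 higher and 328 lower, and 87 for the difference between GFP levels. The median change of all peaks stayed within 0.1 under each scaling. Depth limits the weak peaks, where only large changes could be called, and 1 library per time leaves differences between cultures unmeasured.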
